A study of Homo sapiens with 30 samples.

Results

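The response of hCMEC/D3 cells to extracellular vesicles of unstimulated cells was measured by comparing a group called EV-Control with a group called Control, 6 of the 30 RNA sequencing libraries of the study, with 3 libraries in each group. The libraries were chosen by their labels. All 63138 genes with counts were considered, and 16691 of them had enough counts to be tested. hCMEC/D3, an established line of endothelial cells from human brain microvessels, is used to model the blood-brain barrier in culture. The Control cells were kept in serum-free medium alone for 12 h. The EV-Control cells received vesicles enriched from the supernatant of cells that had themselves been kept in that medium without a stimulus, and they too are labelled 12 h. The other 24 libraries are 4 groups stimulated directly (TNF, IL1b, C5a and Epinephrine) and 4 groups given vesicles of cells stimulated in those ways (EV-TNF and EV-IL1b, besides EV-C5a and EV-Epinephrine), again with 3 libraries each.

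Extracellular vesicles are membrane-bound particles that cells shed from the plasma membrane or release from endosomal compartments, and they carry proteins, lipids and RNA to cells that take them up. Brain endothelial cells are held together by tight and adherens junctions, express efflux pumps and nutrient carriers, and keep an endothelial programme under transcription factors such as ERG. When activated, endothelial cells raise adhesion molecules, chemokines and cytokines, many of them through the transcription factor NF-kappaB, whose own inhibitors are among its targets.

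The arms may have differed in handling. The labels name no mock preparation given to the Control cells, and they give neither the vesicle dose nor the carrier fluid. An effect of the vesicles, of other material enriched with them and of the added handling cannot be told apart in this comparison. The labels do not say whether the 3 libraries of a group came from separate cultures, so p-values measure a spread between libraries that may be technical. That spread was estimated from all 30 libraries together, except where a fit of the 6 libraries alone is named.

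Control libraries held 17274481 to 18438800 counts and EV-Control libraries 16690949 to 18142368, with 14650 to 15060 genes at 10 or more counts. At this depth, counting error is not small for genes at a few CPM, such as CCL20, EREG, HEY1 and ZNF792 below. For scale, CSF2 at 0.635 CPM in Control replicate 1 had 12 counts. The EV-Control libraries differed more among themselves. Over genes with 20 or more counts in sum, the chi-square per gene between 2 libraries was 2.81 to 3.79 in Control and 4.87 to 10.1 in EV-Control, where replicates 1 and 3 were farthest apart. Defining endothelial genes were present in all 6 libraries, with CDH5 at 179 to 274 CPM (read counts brought to a common library size by the library total and a normalization factor). NOS3, the endothelial nitric oxide synthase, was nearly absent, at 0.219 to 0.899 CPM (60 counts over the 6 libraries). Markers of leukocytes and microglia summed to 2.02 to 2.11 CPM in Control and 1.21 to 2.04 CPM in EV-Control. CD3E and TYROBP among them had no count in the 6 libraries. The 7 astrocyte markers summed to 126 to 143 CPM in Control and 139.7 to 154 CPM in EV-Control. AQP4 and S100B had no count there, and GJA1, a gap junction protein that endothelial cells also make, was called higher (0.14 on the log2 scale), a call lost with scaling by total counts and without Control replicate 2 or EV-Control replicate 1. Epithelial markers summed to 281 to 301 CPM in Control and 299.9 to 312 CPM in EV-Control, with none of 4 tested called. The keratin gene KRT18 alone had means of 253 CPM in Control and 266 CPM in EV-Control. EPCAM and CDH1 were nearly absent, with 6 and 5 counts over the 6 libraries. Neuron markers summed to 44.1 to 54.1 CPM in Control and 36.1 to 42.3 CPM in EV-Control, STMN2 had no count, and MAP2, a microtubule protein, was the 1 of 5 called (-0.37). The 12 mural and fibroblast markers summed to 377 to 432 CPM in Control and 427 to 448 CPM in EV-Control, and 1 of the 7 tested was called, PDGFRB, a growth factor receptor of pericytes, which was higher by 0.32 on the log2 scale. The part of these cell type markers in the other results was not tested.

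Vesicles of unstimulated cells went with wide and mostly small differences in RNA levels. Of the 16691 genes, 3659 (21.9%) passed edgeR's quasi-likelihood test at a Benjamini-Hochberg adjusted p under 0.05, 2024 of them higher in EV-Control (12.1%) and 1635 lower (9.8%). Only 372 of these (2.23%) also differed by more than 1 on the log2 scale, that is by more than 2-fold, and here rises outnumbered falls by 264 to 108. With libraries scaled by their totals alone the split turned, with 1612 genes higher and 2169 lower (42.6% higher, against 55.3%), and the median over all genes moved from -0.007 to -0.041. The balance of small rises and falls depended on the scaling. Control and EV-Control libraries did not overlap for 5825 genes (34.9%), among them 1882 of the genes called higher and 1542 of those called lower.

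**Figure D1:**
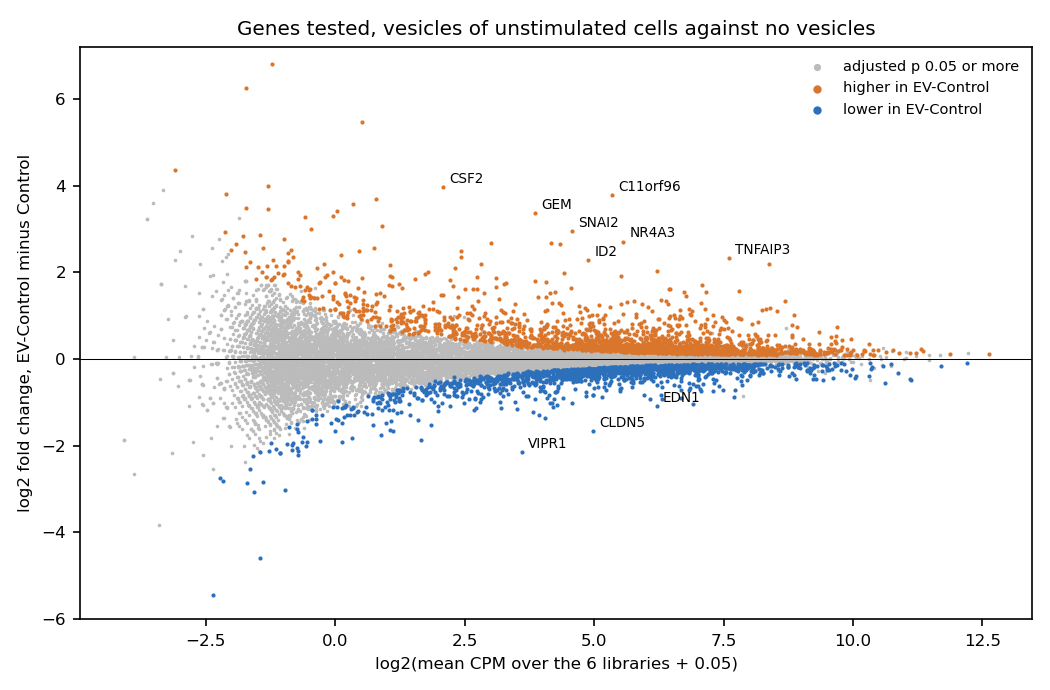
Log2 fold change of each of the 16691 tested genes, EV-Control minus Control, against the log2 of its mean level in CPM plus 0.05 over the 6 libraries. Orange and blue points passed the adjusted p of 0.05 (2024 higher, 1635 lower), grey points did not, and 10 genes with large changes are named.

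The 12 largest rises, among genes whose libraries did not overlap and whose higher group reached 5 CPM, were those of CSF2, C11orf96, GEM, SNAI2, NR4A3, RASD1, SFRP1, SOX9, CCL20, HEY1, TNFAIP3 and ID2. They ran from 15.7-fold to 4.89-fold, and the lack of overlap in each follows from this choice. The list mixes cytokines, inhibitors of signalling and transcription factors.

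CSF2 (ENSG00000164400, chromosome 5, 132073790 to 132076170) encodes the cytokine GM-CSF, which drives granulocyte and macrophage production. It had 12, 9 and 6 counts in Control replicates 1, 2 and 3 and 245, 102 and 59 counts in the EV-Control replicates. Every EV-Control library lay above every Control library, which the choice of genes required. The level in EV-Control replicate 1 was several times that in replicate 3. The log2 fold change was 3.97 (SE 0.7, edgeR quasi-likelihood adjusted p = 0.000212). In a fit of the 6 libraries alone, with the spread taken from them only, the adjusted p of CSF2 in that test was 0.0504.

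C11orf96 (ENSG00000187479, chromosome 11, 43942505 to 43944338), an open reading frame of little-known function, stood at 5.4, 5.88 and 5.18 CPM in the Control libraries and at 94.3, 75.4 and 56.7 CPM in the EV-Control libraries. The groups were far apart and the rise was 13.7-fold (log2 3.78, SE 0.24, edgeR quasi-likelihood adjusted p = 7.13e-11). GEM, a small GTP-binding protein that restrains voltage-gated calcium channels, rose from 2.7, 2.24 and 2.7 to 36, 25.9 and 17.7 CPM. RASD1 (ENSG00000108551, chromosome 17, 17494437 to 17496395), another small GTPase, which is induced by glucocorticoids, rose from 4.71, 4.27 and 5.51 to 35.5, 35 and 22.8 CPM. In both, EV-Control replicate 3 was the lowest of its group.

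Among transcription factors, SNAI2, a repressor of epithelial cadherin genes known from the epithelial to mesenchymal transition, rose 7.78-fold, from 4.97, 5.29 and 5.96 to 51.6, 42.5 and 32.3 CPM (log2 2.96, SE 0.13). SOX9 (ENSG00000125398, chromosome 17, 72121020 to 72126420), a factor of cartilage and progenitor cells, rose from 5.72, 5.29 and 5.68 to 34.8, 35.8 and 34.2 CPM (log2 2.65, SE 0.15). Its EV-Control libraries were nearly alike. ID2 (ENSG00000115738, chromosome 2, 8678845 to 8684453), which binds basic helix-loop-helix factors and keeps them off DNA, rose from 10.7, 10.7 and 8.55 to 41.2, 53.6 and 51.6 CPM (log2 2.29, SE 0.1). SFRP1, a secreted antagonist of Wnt ligands, went from 2.01, 2.4 and 2.08 to 11.8, 16 and 13.7 CPM. SFRP1 and ID2 were lowest in EV-Control replicate 1. All 4 genes kept their call in each of the 13 other settings tried.

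**Figure D2:**
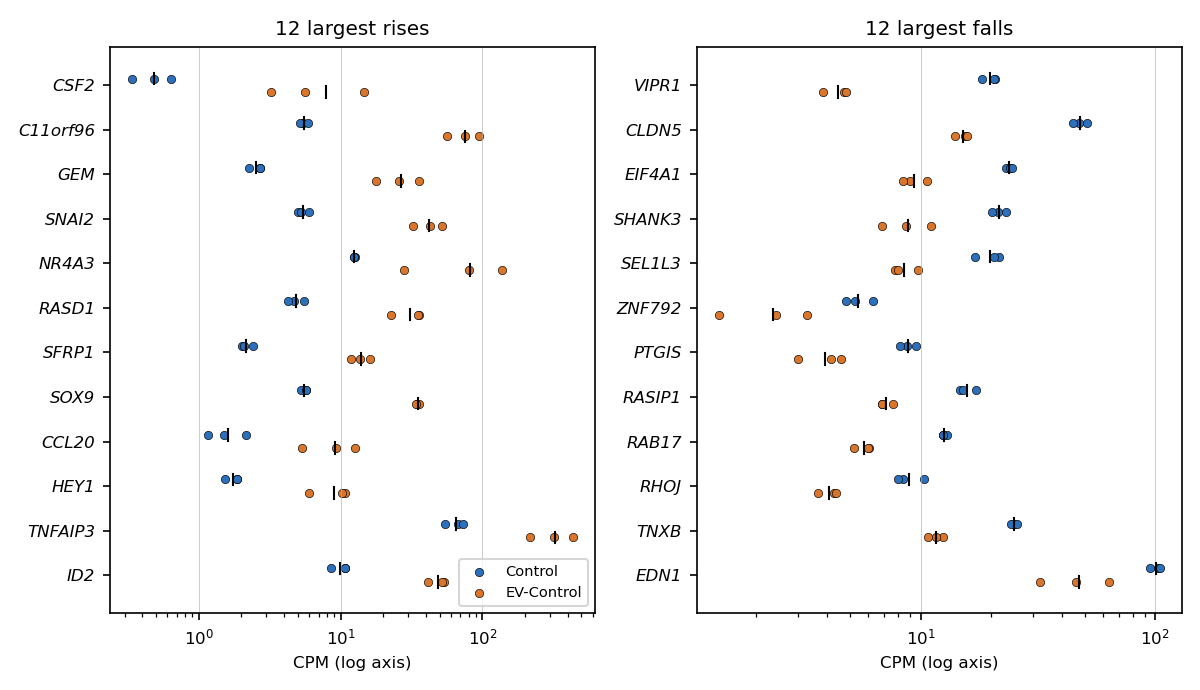
Level in CPM, on a log axis, of the 12 genes with the largest rise and the 12 with the largest fall in each Control library (blue) and EV-Control library (orange), with the group mean as a black bar (n = 3 each). No gene shown has overlapping groups, which the choice of genes required, and the EV-Control libraries spread widely for CSF2 and NR4A3.

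Genes induced through cyclic AMP and its transcription factor CREB were mostly higher. Of 22 tested members of a list of such targets, 15 rose and 1 fell (72.7%, against 21.9% of all genes), with a median log2 fold change of 0.457 beside -0.007 over all genes. This list, like the others, was chosen with earlier results of these data known. In the fit of 6 libraries alone 12 were called, 11 of them higher. Without EV-Control replicate 1 there were 13, all higher. Replicate 1 was the highest EV-Control library for 10 of the 15 that rose. All 3 NR4A genes, which encode orphan nuclear receptors made within hours of a stimulus, rose. NR4A1 stood at 199.8, 190.2 and 183 CPM in Control and 444, 453 and 351 CPM in EV-Control. NR4A2 went from 119.7, 106 and 109 to 369.9, 334 and 298 CPM. NR4A3 (ENSG00000119508, chromosome 9, 99821855 to 99866891) had 12.6, 12.4 and 12.4 CPM in Control, hardly any spread, and 137, 80.8 and 28.1 CPM in EV-Control, where replicate 1 was several times as high as replicate 3. Log2 fold changes were 1.12 (SE 0.098) for NR4A1, 1.58 (SE 0.13) for NR4A2 and 2.71 (SE 0.37) for NR4A3. In the fit of 6 libraries alone the NR4A3 call was lost (edgeR quasi-likelihood adjusted p = 0.0708).

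Feedback enzymes of the cyclic AMP path showed smaller changes. PDE4D, a phosphodiesterase that breaks down cyclic AMP, rose from 8.1, 8.92 and 7.2 to 29, 21.6 and 15 CPM, and its relative PDE4B rose by 0.47 on the log2 scale. PDK4, a kinase that shuts off pyruvate dehydrogenase, rose by 1.03. SIK1, a kinase that restrains CREB coactivators, rose by 0.39, and reads of it may be shared with a near-identical copy. RGS2 (0.31), PDE4A (0.049), PDE10A (0.1) and DUSP1 (-0.49) did not pass the test. Of the secreted factors, LIF, a cytokine of the interleukin 6 family, rose from 70, 57.8 and 62 to 132, 144 and 138 CPM and BDNF, a neurotrophin, by 0.91. VGF, a neuropeptide precursor, was the one member that fell (-1.38), with 55 counts over the Control libraries and 20 over the EV-Control libraries.

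Immediate early genes were divided. Of 23 tested, 8 rose and 2 fell (43.5% called, against 21.9% of all genes), with a median of 0.295. FOSB, a subunit of the AP-1 transcription factor, was counted above among the cyclic AMP and CREB targets and not among these 23. It rose from 182, 79 and 97.8 to 383, 476 and 774 CPM. ATF3, a stress-induced partner of AP-1, rose from 277, 194 and 225 to 551, 548 and 668 CPM. MYC, a driver of growth and ribosome production, rose by 0.87 (SE 0.069) and FOSL1, another AP-1 subunit, by 0.92 (SE 0.061), both with closely spaced libraries. FOS itself did not pass the test. It had 478, 158 and 272 CPM in Control and 44.2, 105 and 355 CPM in EV-Control, so that the groups overlapped and replicate 3 stood apart from replicates 1 and 2. Without EV-Control replicate 3 FOS was called lower, at -2.01 on the log2 scale (edgeR quasi-likelihood adjusted p = 0.00463). EGR1, a zinc finger factor induced through ERK, had 125, 108 and 136 CPM in Control and 87.9, 179.6 and 293 CPM in EV-Control and did not pass the test. EGR1 was called higher when EV-Control replicate 1 was left out (log2 0.95, edgeR quasi-likelihood adjusted p = 0.00108). KLF2, a flow-responsive factor of resting endothelium, fell by 0.74 and KLF10 by 0.22, while KLF4 rose by 0.97, a call lost in the fit of 6 libraries (edgeR quasi-likelihood adjusted p = 0.0853). In that fit 6 members of the list were called, 5 of them higher, and with EV-Control replicate 1 left out of the full fit there were 12 called, all higher.

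Feedback genes of the ERK kinase path rose in 9 of 16 cases and fell in 1 (62.5% called, against 21.9% of all genes). EREG, a ligand of the EGF receptor, showed the largest rise, from 2.33, 1.28 and 1.91 to 9.06, 7.17 and 7.67 CPM (log2 2.11, SE 0.26). HBEGF, a second ligand of that receptor, had 69.6, 70.9 and 77.8 CPM in Control and 160.1, 122 and 88.7 CPM in EV-Control, a rise whose call was lost in the fit of 6 libraries (edgeR quasi-likelihood adjusted p = 0.114). SPRY4 and DUSP4, inhibitors that act back on the path, rose by 0.75 and 0.63. SPRY1, of the same family as SPRY4, fell by 0.42, and DUSP6 (0.15), ETV4 (-0.066) and ETV5 (-0.014) did not pass the test.

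Genes of endothelial activation were higher as a group. Of 34 tested, 22 rose and 3 fell (73.5% called, against 21.9% of all genes), and the median log2 fold change was 0.777. This count rests on a spread shared by all 30 libraries. In the fit of the 6 libraries alone 9 members were called, 8 of them higher, with a median of 0.783. Replicate 1 was the highest of the EV-Control libraries for 19 of the 22 genes that rose, replicate 3 for 3 and replicate 2 for none. Over all genes called higher, replicate 1 was the highest in 1138 of 2024. Without EV-Control replicate 1 there were 22 called, 20 of them higher, and the median fell to 0.571. The part of that library in the result beyond these values was not tested.

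The members that rose in both fits were CCL20, CXCL3, IL6, IL1A, IL1B, NFKBIA, TNFAIP3 and IRF1. IL6, an inflammatory cytokine, stood at 43.1, 34.9 and 52 CPM in Control and 124, 134 and 140.1 CPM in EV-Control (log2 1.62, SE 0.15, edgeR quasi-likelihood adjusted p = 5.84e-08). IL1B, the precursor of interleukin 1 beta, rose from 20.8, 14.6 and 22.8 to 67.2, 71.5 and 79.1 CPM (log2 1.91, SE 0.15). For both, the EV-Control libraries were close together and far above Control. CCL20 (ENSG00000115009, chromosome 2, 227805739 to 227817564), a chemokine that draws lymphocytes and dendritic cells through the receptor CCR6, rose from 1.16, 1.5 and 2.14 to 12.6, 9.32 and 5.31 CPM. IL1A and CXCL3, an alarmin cytokine and a neutrophil chemokine, rose by 1.52 and 1.74.

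Inhibitors of NF-kappaB rose with the cytokines. TNFAIP3 (ENSG00000118503, chromosome 6, 137867188 to 137883312) encodes A20, an enzyme that edits ubiquitin chains and shuts the path down. It stood at 67.5, 54.2 and 73.4 CPM in Control and 438, 319.9 and 217 CPM in EV-Control (log2 2.32, SE 0.22, edgeR quasi-likelihood adjusted p = 6.34e-08). NFKBIA, which encodes the inhibitor that holds NF-kappaB in the cytoplasm, went from 302, 285 and 336 to 704, 645 and 527 CPM (log2 1.02, SE 0.11). IRF1, a transcription factor of inflammatory and interferon responses, rose by 1.62. Of the NF-kappaB subunits, NFKB2 rose by 0.59 in the full fit and was not called in the 6 libraries alone (edgeR quasi-likelihood adjusted p = 0.168), and NFKB1 (0.11) and RELB (0.14) passed in neither.

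The promoters of 4 of these genes are shown because each holds a sequence of the kind NF-kappaB binds. They are the 250 bases before the start in RefSeq on GRCh38.p14, in the direction of the gene, with each match to a kappaB-like motif (GGG, any 2 bases, then TTTCC, on either strand) in capitals. TNFAIP3 is at chr6:137867009-137867258 on the plus strand, NFKBIA at chr14:35404750-35404999 on the minus strand, IL6 at chr7:22726950-22727199 on the plus strand and CCL20 at chr2:227813592-227813841 on the plus strand.
TNFAIP3: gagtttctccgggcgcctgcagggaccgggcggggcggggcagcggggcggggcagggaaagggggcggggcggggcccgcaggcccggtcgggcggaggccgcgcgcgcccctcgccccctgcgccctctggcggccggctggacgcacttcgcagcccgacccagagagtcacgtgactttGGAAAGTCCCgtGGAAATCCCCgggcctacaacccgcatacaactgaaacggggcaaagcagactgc
NFKBIA: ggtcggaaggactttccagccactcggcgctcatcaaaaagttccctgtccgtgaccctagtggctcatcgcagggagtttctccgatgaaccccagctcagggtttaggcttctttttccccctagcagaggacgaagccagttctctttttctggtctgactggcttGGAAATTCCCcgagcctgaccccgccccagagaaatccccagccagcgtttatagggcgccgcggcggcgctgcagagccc
IL6: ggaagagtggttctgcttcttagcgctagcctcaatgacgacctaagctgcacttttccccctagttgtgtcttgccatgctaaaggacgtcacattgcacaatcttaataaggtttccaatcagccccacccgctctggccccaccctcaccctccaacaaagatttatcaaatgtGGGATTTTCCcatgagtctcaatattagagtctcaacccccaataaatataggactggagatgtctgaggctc
CCL20: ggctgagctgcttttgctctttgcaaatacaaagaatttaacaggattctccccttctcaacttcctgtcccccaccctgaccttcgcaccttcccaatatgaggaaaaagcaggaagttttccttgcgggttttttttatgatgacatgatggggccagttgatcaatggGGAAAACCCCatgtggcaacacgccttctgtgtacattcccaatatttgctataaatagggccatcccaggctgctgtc
The TNFAIP3 promoter holds 2 matches, which begin 67 and 55 bases before the start, and the others hold 1 each, which begin 81, 73 and 79 bases before it in NFKBIA, IL6 and CCL20. These 4 were picked for holding a match. Of other genes that rose, IL1B, CSF2, ICAM1, VCAM1 and CXCL8 held no such match in their windows. SELE held 1, as did RIGI, which fell. Over all such windows of tested genes, a match on either strand was present in 319 of 16625 (1.92%). Among genes called higher by more than 1 on the log2 scale it was present in 15 of 243 windows (6.17%), and among those called lower by more than 1 in 2 of 76 (2.63%). The letters TGAGTCA, bound by AP-1 and searched on both strands, were in 21 of the 243 windows of genes that rose (8.64%), in 8 of the 76 of genes that fell (10.5%) and in 528 of all (3.18%). The letters TGACGTCA, bound by CREB, were in 5 of 243 (2.06%), in 2 of 76 (2.63%) and in 408 of all (2.45%). The letters TATAAA on the gene's own strand were in 23 of 243 (9.47%), in 6 of 76 (7.89%) and in 651 of all (3.92%). The other 3 motifs searched on both strands, TGACGCAA, a tandem ETS site and the CArG box, were in at most 4 of the 243 windows. A match is a description of the letters and not a measured binding site.

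Adhesion molecules and several chemokines moved less evenly. VCAM1, which holds leukocytes through integrins, had 7.36, 6.3 and 9 CPM in Control and 43.6, 20.7 and 13.8 CPM in EV-Control, a rise of 1.77 (SE 0.35) that was not called in the 6 libraries alone (edgeR quasi-likelihood adjusted p = 0.105). SELE, the selectin on which leukocytes roll, had 5, 2 and 3 counts in Control and 87, 28 and 1 in EV-Control, so the groups overlapped. Its call was lost without EV-Control replicate 1 (adjusted p = 0.0956 in that test). ICAM1, a ligand of leukocyte integrins, stood at 146, 140.4 and 137 CPM in Control and 252, 182 and 148 CPM in EV-Control. Its rise of 0.46 was lost in 4 of the 13 other settings, among them those without Control replicate 2, Control replicate 3 or EV-Control replicate 1. CCL2, a monocyte chemokine, had 22.3, 18.8 and 25 CPM in Control and 59.2, 29.9 and 30.1 CPM in EV-Control, and CXCL8, a neutrophil chemokine, 108, 85.7 and 149 CPM and 216, 200.4 and 205 CPM. Neither was called in the 6 libraries alone (edgeR quasi-likelihood adjusted p = 0.198 and 0.0698). ICAM2, a constitutive adhesion molecule of resting endothelium, fell by 0.73 and was called lower in both fits. CXCL11 and CX3CL1, of the chemokines, fell by 1.17 and 1.17, each from 52 counts over the Control libraries to 22 over the EV-Control libraries. In the 6 libraries alone CXCL11 was not called (edgeR quasi-likelihood adjusted p = 0.0843), and CX3CL1 had too few counts to be tested there.

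The interferon response moved little. Of 31 genes, 3 rose and 5 fell (25.8%, against 21.9% of all genes), and the median was -0.076. The called genes were 13 in the fit of 6 libraries alone and 5 without Control replicate 1, Control replicate 3 or EV-Control replicate 1. IFI6, an interferon-induced membrane protein, fell from 911, 902 and 899 to 666, 684 and 659 CPM, and OASL, a relative of the oligoadenylate synthetases, rose from 77.9, 74.6 and 75.4 to 117, 117 and 114 CPM. The fall of RIGI, a sensor of viral RNA, by 0.72 was lost in 5 of the 13 other settings, and CXCL10, a chemokine induced by interferon, stayed at 33 and 29 counts over the libraries of the 2 groups.

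Targets of TGF-beta and BMP signalling rose in 8 of 13 cases and fell in 1 (69.2% called, against 21.9% of all genes). ID1, a target of BMP signalling related to ID2, stood at 72.8, 62.2 and 56.4 CPM in Control and 128, 231 and 265 CPM in EV-Control, where replicate 1 was the lowest. ID3, of the same family, rose from 224, 199 and 194 to 415, 519 and 466 CPM and SMAD7, which inhibits the receptors of the path, from 9.63, 11.3 and 10.4 to 19.8, 29.8 and 27.5 CPM. TGFB2, a ligand, rose by 0.46. Targets of YAP, a coactivator that responds to cell stretch and contact, were divided, with 3 higher and 4 lower of 8 (87.5% called). ANKRD1 fell by 0.47 and CCN1 by 0.49, AXL rose by 0.31, and CCN2 did not pass the test (0.031).

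In the Notch path, which sets cell fate through contact between neighbouring cells, a ligand and 2 targets rose and a receptor fell, 4 of 12 genes (33.3%), not far above the 21.9% of all genes. HEY1, a repressor switched on by Notch, rose from 1.54, 1.87 and 1.86 to 10.7, 10.2 and 5.97 CPM (log2 2.35, SE 0.22) and NRARP, a feedback inhibitor, from 44, 39.5 and 36.9 to 118, 96.2 and 63.1 CPM. JAG1, the ligand, had 76.8, 77.1 and 78.2 CPM in Control and 282, 166 and 120.2 CPM in EV-Control, and its call was lost in the fit of 6 libraries (edgeR quasi-likelihood adjusted p = 0.0841). NOTCH4, the receptor found in endothelium, fell by 0.25. HES1 (-0.28), another target, and the ligand DLL4 (-0.013) did not pass the test. Of the VEGF and angiopoietin genes, VEGFA, the main growth factor of vessels, rose from 52.8, 53.7 and 45.7 to 80.7, 79.7 and 76.2 CPM, ANGPTL4 rose by 0.79, and PGF, a relative of VEGFA, fell from 37.8, 40.3 and 42.9 to 22.5, 22.9 and 22.3 CPM. In Wnt signalling, 3 of 12 genes rose, SFRP1 among them, and 2 fell (41.7% called, against 21.9% of all genes). The co-receptors LRP6 and LRP5 moved apart by small amounts (0.29 and -0.22).

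Many genes that mark endothelium were lower in EV-Control. Of 30 tested genes of endothelial identity, 19 fell and 3 rose (73.3% called, against 21.9% of all genes), with a median of -0.339. In the fit of 6 libraries alone 18 fell and 2 rose. Summed over the list, Control libraries stood at 2924 to 3044 CPM and EV-Control libraries at 2493 to 2603 CPM, with no overlap. Leaving out 1 library at a time from the full fit gave 16 to 18 falls.

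Receptors made up 8 of the falls. TEK, the angiopoietin receptor, stood at 34, 37.5 and 38.5 CPM in Control and 22, 19.7 and 19.1 CPM in EV-Control (log2 -0.86, SE 0.078). KDR, the main VEGF receptor, went from 10.2, 11 and 10.5 to 7.26, 5.74 and 6.35 CPM and CD34, a surface sialomucin, from 96.6, 97 and 105 to 57.5, 57.1 and 54.8 CPM. TIE1, MCAM and ENG fell by 0.39, 0.26 and 0.15, while NRP1, a co-receptor of VEGF, rose by 0.22. Among transcription factors of the lineage, ERG fell by 0.33, FLI1 by 0.39, GATA2 by 0.35 and TAL1 by 0.32. SOX18 fell by 1.22 at low counts (185 over the Control libraries, 76 over EV-Control). ETS1 rose by 0.6, and SOX17 (0.057) did not pass the test. Of surface and secreted proteins, EGFL7, a matrix factor made by endothelium, fell from 174, 165 and 148 to 74.7, 89.2 and 73.5 CPM, APLN, the ligand of the apelin receptor, from 139, 137 and 125 to 62.4, 75.8 and 76.6 CPM, and VWF, the carrier of clotting factor VIII, from 66.8, 61.2 and 63.7 to 45.4, 44.4 and 40.9 CPM.

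Among barrier genes, 11 rose and 10 fell of 35 tested (60% called, against 21.9% of all genes). With scaling by total counts 9 rose and 10 fell. In the full fit 3 of the falls were tight junction and 4 adherens junction genes. CLDN5 (ENSG00000184113, chromosome 22, 19523024 to 19527545), the main claudin of brain endothelial tight junctions, showed the second largest of the named falls. It stood at 51.1, 47.3 and 44.4 CPM in Control and 15.5, 14.1 and 15.8 CPM in EV-Control, 3.15-fold lower (log2 -1.66, SE 0.09, edgeR quasi-likelihood adjusted p = 6.61e-23). The libraries of each group were close together. Of the other tight junction genes, F11R fell by 0.45 and CLDN12 by 0.32 on the log2 scale, and CLDN11 rose by 0.35. OCLN (19.6, 22.9 and 17.7 CPM in Control, 22.9, 22.2 and 25.2 in EV-Control) and TJP1 (0.092 on the log2 scale) did not pass the test. In the adherens junction group, PECAM1, an adhesion molecule at endothelial contacts, fell from 267, 258 and 287 to 151, 146 and 145 CPM (log2 -0.88, SE 0.043). ESAM fell from 24, 24.5 and 24.8 to 13.1, 12.4 and 10.7 CPM and CDH5, the endothelial cadherin, from 274, 260.4 and 273 to 198, 190.2 and 179.7 CPM. CTNNB1, beta-catenin, did not pass (-0.0049).

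Transport genes of the barrier went mostly upward by small amounts. Of 11 nutrient carriers and receptors, 7 rose and 2 fell (81.8% called, against 21.9% of all genes). TFRC, the transferrin receptor, rose by 0.46 and SLC7A5, the large neutral amino acid carrier, by 0.46. The glucose carrier SLC2A1 fell by 0.17. Of the efflux pumps, ABCB1, which encodes P-glycoprotein, fell from 213, 224 and 224 to 175, 176 and 177 CPM (log2 -0.32, SE 0.042), ABCC1 rose by 0.33, and ABCG2 did not pass (0.11).

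The largest falls of all, by the rule used for the rises, were those of VIPR1, CLDN5, EIF4A1, SHANK3, SEL1L3, ZNF792, PTGIS, RASIP1, RAB17, RHOJ, TNXB and EDN1, from 4.45-fold to 2.13-fold. VIPR1 (ENSG00000114812, chromosome 3, 42489299 to 42537573), a receptor of vasoactive intestinal peptide that signals through cyclic AMP, stood at 20.7, 20.5 and 18.2 CPM in Control and 4.74, 4.8 and 3.83 CPM in EV-Control (log2 -2.15, SE 0.14, edgeR quasi-likelihood adjusted p = 3.06e-19). EDN1 (ENSG00000078401, chromosome 6, 12290363 to 12297194), the vasoconstrictor endothelin 1, fell from 102, 95.4 and 105 to 32.2, 45.8 and 63.4 CPM. Its EV-Control libraries were spread out, with replicate 1 lowest, and the call was lost in the fit of 6 libraries (adjusted p = 0.0593 in that test). PTGIS (ENSG00000124212, chromosome 20, 49503874 to 49568146), which makes prostacyclin, went from 9.58, 8.76 and 8.16 to 3, 4.58 and 4.16 CPM. Both EDN1 and PTGIS encode makers of signals that set vessel tone.

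RASIP1 (ENSG00000105538, chromosome 19, 48720587 to 48740721) and RHOJ (ENSG00000126785, chromosome 14, 63204114 to 63293219) act on small GTPases in vessel formation. RASIP1 fell from 17.2, 14.7 and 15.2 to 6.84, 6.84 and 7.61 CPM and RHOJ from 10.4, 8.38 and 8.04 to 4.26, 4.36 and 3.67 CPM. SHANK3 (ENSG00000251322, chromosome 22, 50674415 to 50733298), a scaffold protein best known from synapses, fell from 21.5, 23 and 20.1 to 11, 8.71 and 6.84 CPM. RAB17 (ENSG00000124839, chromosome 2, 237574322 to 237601614), a GTPase of endosome transport, went from 12.5, 13 and 12.4 to 6.06, 5.96 and 5.2 CPM. SEL1L3 (ENSG00000091490, chromosome 4, 25747427 to 25863760) fell from 21.7, 17 and 20.6 to 9.72, 7.78 and 8 CPM and ZNF792 (ENSG00000180884, chromosome 19, 34956354 to 34964049), a zinc finger gene, from 5.24, 6.25 and 4.84 to 1.38, 2.43 and 3.29 CPM. The remaining falls need care. EIF4A1 (ENSG00000161960, chromosome 17, 7572706 to 7579005), an RNA helicase of translation initiation, fell from 23, 24.1 and 24.5 to 9, 8.44 and 10.6 CPM, but its exons are shared with a read-through transcript and hold small nucleolar RNAs, so the level depends on how reads were assigned. TNXB, a matrix protein, overlaps CYP21A2 on the other strand and fell from 25, 24.2 and 25.7 to 10.7, 12.5 and 11.6 CPM. C11orf96, TNFAIP3, ID2, VIPR1 and RAB17 also overlap genes of the opposite strand, and the strand setting of the counting is not given in the sources used here. The 24 genes with the largest changes kept their calls in all 13 other settings, except CSF2, NR4A3 and EDN1, which were lost in the fit of 6 libraries alone.

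**Figure D3:**
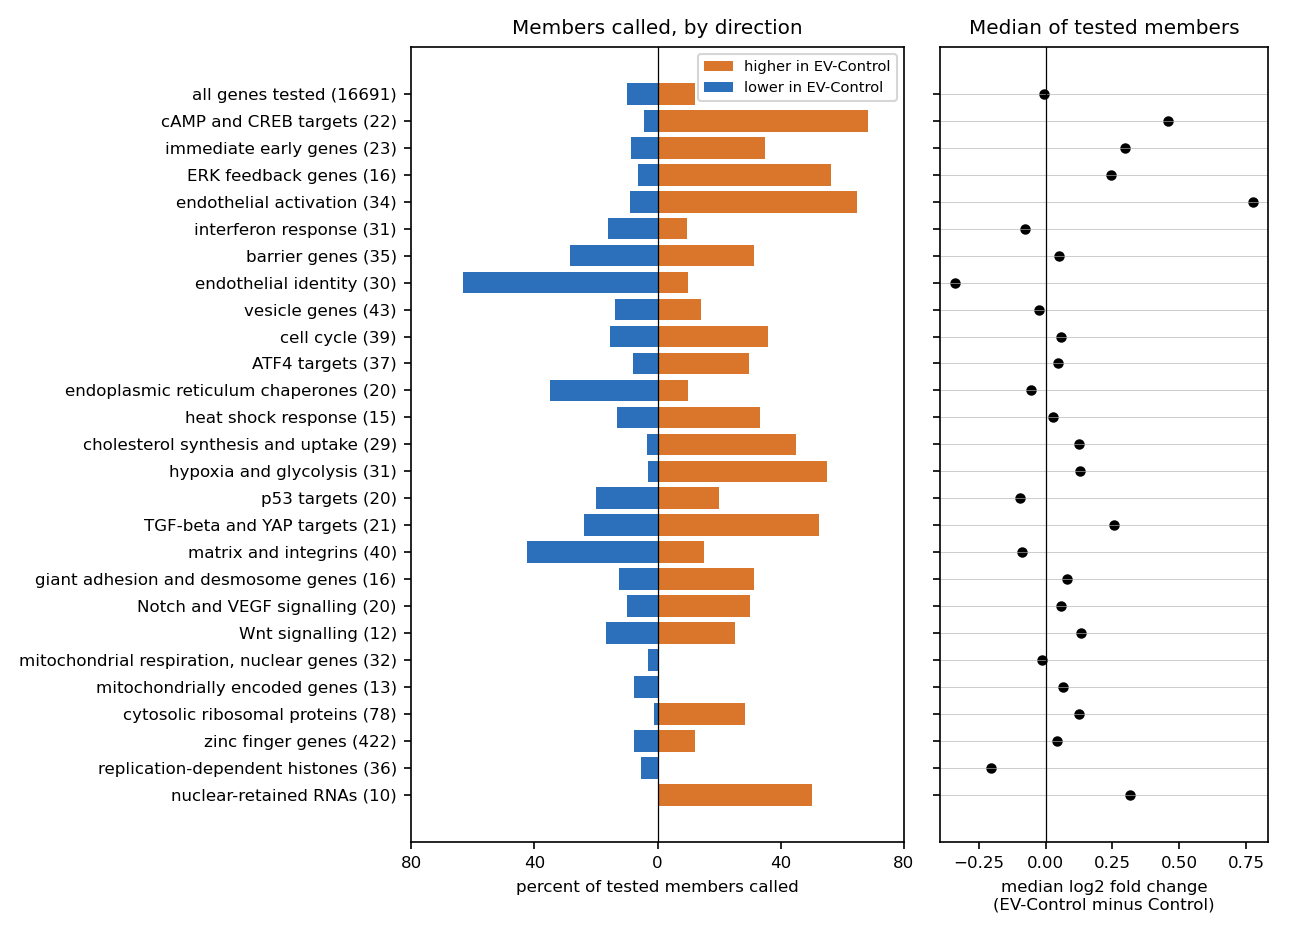
Left, percent of the tested members of each gene list (number in brackets) called higher (orange, to the right) or lower (blue, to the left) in EV-Control. Right, the median log2 fold change of the tested members. The lists of cAMP and CREB targets (15 higher, 1 lower) and endothelial activation (22 higher, 3 lower) extend to the right, and endothelial identity (3 higher, 19 lower) to the left.

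Genes of vesicle formation and uptake were near the background. Of 43 tested, 6 rose and 6 fell (27.9%, against 21.9%), with a median of -0.023. Leaving out Control replicate 1, Control replicate 2, EV-Control replicate 1 or EV-Control replicate 2 left 7 called in each case, without Control replicate 1 as 6 higher and 1 lower. With scaling by total counts 4 rose and 9 fell. The tetraspanin CD9, a common surface marker of vesicles, fell from 703, 676 and 702 to 525, 499 and 487 CPM (log2 -0.46, SE 0.044), and CD81 by 0.15, a call lost in 4 of the 13 other settings. CD63 (-0.17) did not pass. RAB27B, which docks vesicle-holding endosomes at the plasma membrane, rose by 0.46, a call lost in 2 settings. SDC4, a heparan sulfate proteoglycan, rose from 230.5, 226 and 228 to 369, 294 and 267 CPM and was not called in the 6 libraries alone (edgeR quasi-likelihood adjusted p = 0.0967). None of the 6 lipid enzymes and sorting genes was called.

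Metabolic lists moved upward by small amounts. Of 29 genes of cholesterol synthesis and uptake, 13 rose and 1 fell (48.3%), with a median of 0.124. IDI1 and HMGCS1, enzymes of the synthesis, rose by 0.35 and 0.3. The single fall, named after its value was seen, was that of ABCG1 (-1.17 on the log2 scale), which exports cholesterol. Of 31 genes of hypoxia and glycolysis, 17 rose and 1 fell (58.1%), with a median of 0.127. PFKFB3, the activator of a controlling step of glycolysis, went from 46.7, 42.2 and 43.2 to 157, 111 and 71.7 CPM, with a call that was lost in the fit of 6 libraries (edgeR quasi-likelihood adjusted p = 0.0589). With scaling by total counts 13 genes of that list rose in place of 17. Of the 32 nuclear genes of mitochondrial respiration 1 was called (3.12%), and of the 13 mitochondrially encoded genes 1 was called (7.69%), beside 21.9% of all genes. Without EV-Control replicate 2, 4 of the mitochondrially encoded genes were called, 3 of them higher.

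Genes of stress responses moved in both directions, and more of them were called than the 21.9% of all genes. Of 37 targets of ATF4, the factor of amino acid shortage, 11 rose and 3 fell (37.8%), and 6 of the 11 were amino acid carriers. CTH, an enzyme of cysteine synthesis, rose from 2.65, 2.99 and 2.92 to 7.32, 5.84 and 3.78 CPM, and PHGDH, of serine synthesis, from 3.92, 3.58 and 2.92 to 6.84, 5.62 and 5.53 CPM. CHAC1, which degrades glutathione, fell by 0.56, a call lost in 3 of the 13 other settings. Of 20 chaperones of the endoplasmic reticulum, 7 fell and 2 rose (45%), all by less than 0.3 on the log2 scale. Without Control replicate 3 the falls were 3, and without EV-Control replicate 1 or replicate 2 they were 4. XBP1, a factor of the unfolded protein response, rose by 0.28 and PDIA3, a protein foldase, fell by 0.18. Of 15 heat shock genes, 5 rose and 2 fell (46.7%), or 3 and 1 without Control replicate 1. The falls were those of HSPA8 by 0.23 and DNAJB1 by 0.25. Both of those calls were lost in the fit of 6 libraries. Of 20 p53 targets, 4 rose and 4 fell (40%), with MDM2, which degrades p53, higher by 0.49 and PLK3 by 0.56.

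Genes of DNA replication rose slightly, 10 of 15 and none lower (66.7% called, against 21.9% of all genes), with a median of 0.132. Over the whole cell cycle list, 14 of 39 genes rose and 6 fell (51.3% called), or 10 and 8 with scaling by total counts. CDC6, which loads the replicative helicase, went from 119.8, 115 and 128 to 147, 151 and 146 CPM. Of 15 mitosis genes 1 rose and 3 fell (26.7% called, near the 21.9% of all genes), with a median of -0.073. CCND1, a cyclin of cell cycle entry, rose by 0.41, and CDKN2C, an inhibitor of its kinases, fell by 0.34. Of 78 cytosolic ribosomal protein genes 22 rose and 1 fell (29.5%), with a median of 0.126. That count was 50 higher and 1 lower in the fit of 6 libraries alone and 14 higher and 1 lower with scaling by total counts or without Control replicate 1 or replicate 2.

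Matrix and integrin genes were more often lower than higher, 17 against 6 of 40 (57.5% called, against 21.9% of all genes). Without Control replicate 1 the counts were 11 and 5. COL1A2, a chain of type I collagen, fell from 207, 217 and 200 to 127, 138 and 139.7 CPM (log2 -0.62, SE 0.05), and COL12A1, a fibril-associated collagen, rose from 677, 719 and 676 to 932, 924 and 926 CPM. ADAMTS1, a protease of matrix proteoglycans, rose from 10.7, 10.2 and 11.3 to 22.3, 22.4 and 25.7 CPM. DSP, which anchors desmosomes to intermediate filaments, rose from 2.43, 1.66 and 1.97 to 7.74, 6.56 and 7.17 CPM (log2 1.82, SE 0.16) and JUP, a catenin shared by desmosomes and adherens junctions, fell by 0.33, a call lost in the fit of 6 libraries.

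The 2 unstimulated groups were then placed among all 10 groups of the study. For 10 of the 12 largest falls Control had the highest mean of the 10 groups. Over all genes called lower, this held for 861 of 1635 (52.7%), against 2404 of 16691 genes tested (14.4%). A gene chosen as lower in EV-Control is by that choice more likely to be high in Control, so these shares are descriptions. VIPR1 stood at 19.8 ± 1.37 CPM in Control (mean and SD, n = 3) and at 3.53 ± 0.322 in TNF, 7.72 ± 0.808 in C5a, 7.28 ± 0.65 in EV-TNF and 4.46 ± 0.541 in EV-Control. CLDN5 stood at 47.6 ± 3.35 CPM in Control, and the next highest group was Epinephrine with 25.6 ± 3.28. Its other 8 means lay between 15.1 CPM (EV-Control) and 19.8 CPM (TNF). EGFL7 had 162 ± 13 CPM in Control, 102 ± 11.9 in Epinephrine, 79.1 ± 8.73 in EV-Control and 75.2 ± 3.36 in TNF, the lowest. PECAM1 was lowest in EV-Control (148 ± 2.88) and EV-C5a (149.5 ± 7.46), which overlapped, and was at 194 ± 1.39 in EV-TNF. CDH5 was different, with the highest level in TNF (426 ± 12.6) and all 5 vesicle groups between 177 and 189 CPM.

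Among the 12 largest rises EV-Control had the highest mean of the 10 groups for 4 genes (33.3%). Over all genes called higher this held for 420 of 2024 (20.8%), against 1177 of 16691 genes tested (7.05%), and here too the choice of genes favours it. NR4A3 stood at 82.1 ± 54.6 CPM in EV-Control and 51.6 ± 16.8 in EV-C5a, against 4.21 ± 0.198 in EV-TNF, 4.55 ± 0.682 in EV-IL1b and 1.98 ± 0.538 in EV-Epinephrine. TNFAIP3 had 325 ± 110.5 CPM in EV-Control and 351 ± 52.2 in EV-C5a, whose libraries overlapped, and 112 ± 15.8 in EV-TNF. TNF itself gave 1424 ± 199.5 CPM. C11orf96 had 75.5 ± 18.8 CPM in EV-Control, 81.6 ± 16 in TNF, 60.1 ± 5.94 in EV-C5a and 6.77 ± 0.564 in EV-Epinephrine, the last close to the 5.48 ± 0.357 of Control. SOX9 was high in every vesicle group, from 19.8 ± 0.861 in EV-Epinephrine to 34.9 ± 0.844 in EV-Control, while the direct groups ran from 3.91 ± 0.604 in IL1b to 15.9 ± 2.18 in TNF. SFRP1 was likewise at 11.9 to 15.4 CPM in the 5 vesicle groups and at 12.6 ± 0.259 in Epinephrine.

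**Figure D4:**
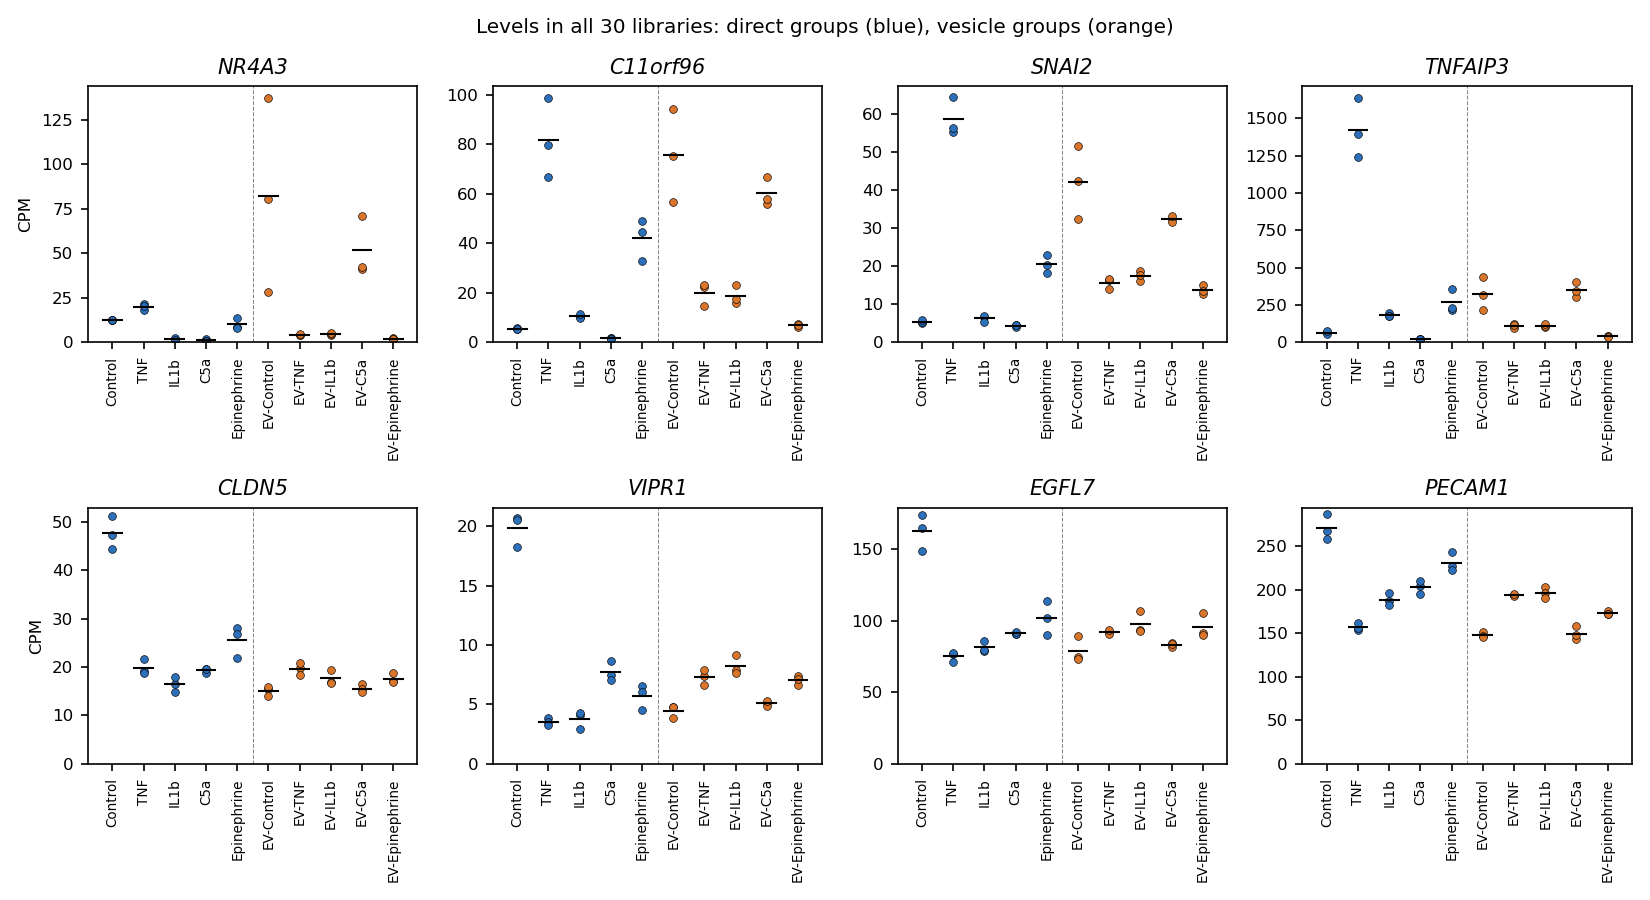
Level in CPM of 4 genes that rose (upper row) and 4 that fell (lower row) in EV-Control against Control, in each of the 30 libraries by group, with the mean of the group as a black bar (n = 3). Direct groups are blue and vesicle groups orange, and each vertical axis starts at 0. Control is the highest of the 10 groups for all 4 genes of the lower row, and EV-C5a is the vesicle group nearest to EV-Control in every panel.

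Whether the vesicle and direct arms differed alike without the unstimulated cells was read from the other 24 libraries, which share none with the comparison above. On the mean of the 4 differences between a stimulated vesicle group and its direct group, 8525 genes were called (51.1%; 24.6% higher and 26.4% lower). Of these, 2436 were also called in EV-Control against Control, 1224 in the same direction (33.5% of the genes called there, 14.4% of the 8525) and 1212 in the opposite direction (33.1% and 14.2%). The groups of a stimulated pair differ in whether cells met the stimulus itself as well as in the arm. In EV-C5a against C5a 2706 genes were called (16.2%; 8.8% higher and 7.42% lower). Of those, 1028 were also called in the same direction in EV-Control against Control (38% of the 2706, 28.1% of the 3659) and 187 in the opposite direction (6.91% and 5.11%). For EV-Epinephrine against Epinephrine the counts were 735 in the same and 799 in the opposite direction, of 4270 called (25.6%, with 13.2% higher and 12.4% lower). For EV-TNF against TNF they were 1095 and 1391 of 8447 (50.6%, with 24.5% higher and 26.1% lower), and for EV-IL1b against IL1b 894 and 1165 of 6558 (39.3%, with 19.3% higher and 20% lower).

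The difference between the unstimulated pair and the mean of the stimulated pairs was tested itself, as an interaction in the fit of all libraries, and 5731 genes passed (34.3%). SOX9 and SFRP1, high in all vesicle groups, rose by 2.65 and 2.67 in the unstimulated pair. On the mean of the stimulated pairs they rose by 1.9 and 1.04. TNFAIP3 differed by 2.32 and -0.76, with an interaction of 3.08 (SE 0.25, edgeR quasi-likelihood adjusted p = 2e-09). Its value of -0.76 is a mean of pairs that moved apart. TNFAIP3 was higher in EV-C5a (304, 341 and 407 CPM) than in C5a (19.8, 19.5 and 20.2 CPM). In the TNF, IL1b and Epinephrine pairs the direct group was the higher. Of the 34 endothelial activation genes 32 passed the interaction test, and of the 30 endothelial identity genes 14. CLDN5 differed by -1.66 without a stimulus and by -0.19 in the stimulated pairs (interaction -1.46, SE 0.1, adjusted p = 1.06e-18 in that test). CDH5 differed by -0.51 and -0.44 and ABCB1 by -0.32 and -0.33, and neither passed the interaction test (adjusted p = 0.26 and 0.967 in that test).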

How the data were processed

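Per the labels' protocols, RNA was isolated with QIAshredder and RNeasy kits and sequenced from NEBNext Ultra libraries. The submitters' processing notes name hg38, STAR, FastQC, DESeq2 and R 4.4.1; the counting program, annotation and strand setting are not given in the sources used here. The authors deposited 1 table of raw read counts per gene, without normalization, and all 30 libraries carry 1 batch number. Lines without a gene ID (at most 0.0016% of a library) were dropped, and TTN and ANK2, whose records are broken over such lines, were left out.

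The counts went into edgeR 4.0.16 under R 4.3.3: filterByExpr at its defaults, trimmed mean of M-values, 1 fit of all 30 libraries in 10 groups, robust quasi-likelihood tests, two-sided, Benjamini-Hochberg adjustment over the 16691 genes and a threshold of 0.05. The script was tested on simulated data. CPM use the same factors, and values with ± are mean and SD. Gene positions are those of GENCODE 29 on GRCh38 (58124 IDs found), and promoters are from RefSeq on GRCh38.p14 (16625 windows of tested genes, of which the 250 bases before the start were searched). The CArG box was searched under its consensus.

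The members and lists were chosen with earlier results of these data known. Named were the 12 largest rises and 12 largest falls (adjusted p under 0.05, at least 5 CPM in the higher group, no overlap), up to 4 genes of each list, a fixed set of 25 genes and up to 5 genes in each direction of the interaction; further list members illustrate roles. Other settings were relative log expression factors, total counts, no filter, a mean of at least 50 counts, DESeq2 1.42.0, a replicate block, the 6 libraries alone and leaving out each library. Some members of the lists are not reported here by name.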

Additional observations from a re-analysis of the deposited data

Results flagged for a closer look

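The difference between EV-Control and Control was set against the mean difference of the 4 stimulated pairs in a test of the interaction, and 5731 of 16691 genes passed at an adjusted p under 0.05 in edgeR's quasi-likelihood test. The values below are log2 interactions of the genes with the largest size, each noted because this test found the unstimulated and stimulated pairs to differ. CSF2 had an interaction of 6.21 (SE 0.81), with 3.97 in the unstimulated pair and -2.23 on the mean of the stimulated pairs. In the C5a pair, unlike the other stimulated pairs, CSF2 was higher in the vesicle group. It stood there at 2.67, 4.64 and 7.27 CPM, against 0.621, 0.635 and 0.301 CPM in C5a. SELE had 6.45 (SE 0.99), with 5, 2 and 3 counts in the Control libraries. CLEC4E (7.9), MRGPRX3 (5.52) and TRPA1 (5.32) are nearly absent here, none above 2 counts in a Control library or 8 in an EV-Control library. Their fitted values depend on the prior count, and no fold is given for the unstimulated pair.

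Negative interactions were found for VIPR1 (-2.62, SE 0.16), RAB17 (-2.31, SE 0.19), ST3GAL5 (-2.35, SE 0.13), NOTCH3 (-2.35, SE 0.18) and FAT1 (-2.29, SE 0.32). VIPR1, RAB17 and ST3GAL5, an enzyme of ganglioside synthesis, fell in the unstimulated pair by 2.15, 1.14 and 0.43 on the log2 scale. On the mean of the stimulated pairs these genes were higher in the vesicle groups, by 0.47, 1.17 and 1.93. Not every pair did so. VIPR1 was lower in EV-C5a (5.08, 4.85 and 5.3 CPM) than in C5a (7.45, 8.63 and 7.08 CPM). The RAB17 libraries of EV-C5a and C5a overlapped. NOTCH3, a receptor of the Notch path, did not pass the test in the unstimulated pair (0.13). It was higher by 2.48 on the mean of the stimulated pairs. FAT1, a giant cadherin, had 0.9, 2.51 and 0.9 CPM in Control (17, 47 and 16 counts). It had 1.62, 2.26 and 3.4 CPM in EV-Control (27, 41 and 62 counts). The groups overlapped, and the call was lost in 6 of the 13 other settings.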

How the results depend on the processing

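The count of genes called in EV-Control against Control was 3668 with relative log expression factors, 3781 with total counts, 3239 without a filter, 3587 with a mean of at least 50 counts, 3695 with DESeq2 and 3274 in the 6 libraries alone. Between 71% and 98.3% of the 3659 genes stayed called under each of the 13 settings, all in the same direction, and leaving out 1 library gave 2743 (without EV-Control replicate 1) to 3273 genes. Requiring more than 1 on the log2 scale as well left 372 genes, 707 in the stimulated pairs and 844 in the interaction. In place of the mean of 4 stimulated pairs, the C5a pair alone gave 2706 genes and the Epinephrine pair alone 4270. Leaving out libraries gave 7268 to 7441 genes for the stimulated pairs, 4862 to 5398 for the interaction, 1903 to 2202 genes called in both comparisons and 299 to 352 called list members, against 8525, 5731, 2436 and 384. With the replicate number as a block, 3614, 8485 and 5670 genes were called in EV-Control against Control, the stimulated pairs and the interaction. Same-numbered libraries had correlations of -0.013, -0.007 and -0.01 between their deviations, so no broad shared shift was seen. These values cannot settle whether the samples were handled as pairs. Of the 130 named genes that were called, 93 kept their call in all 13 settings. In the 6 libraries alone 20 of these calls were lost. NOTCH3, called in none of the settings, went from 0.13 to -0.071 on the log2 scale without Control replicate 3 and to 0.277 without Control replicate 2. Correcting for GC content or gene length left 786 and 785 genes past 1 in size, called or not, against 783.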

Other observations

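Of 422 zinc finger genes, 51 rose and 32 fell (19.7%, near the 21.9% of all genes). The called genes were 43 without EV-Control replicate 1 and 54 without Control replicate 2. ZNF331, ZNF620 and ZNF217 rose by 1.56, 1.09 and 0.88 on the log2 scale. The call of ZNF331 was lost in the 6 libraries alone. Of 36 replication-dependent histone genes 2 fell and none rose (5.56%), with a median of -0.203, and without EV-Control replicate 2 the falls were 1. Of 10 nuclear-retained RNAs 5 rose and none fell (50%), but 1 was called without Control replicate 3 and 3 without Control replicate 1, EV-Control replicate 1 or EV-Control replicate 2. SNHG12 rose from 10.3, 11.1 and 10.5 to 16.6, 17.6 and 15.6 CPM, while the call of MALAT1 was lost in 8 of the 13 other settings. Of 16 giant adhesion and desmosome genes, 5 rose and 2 fell (43.8%).

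Longer transcripts were higher in EV-Control by a small amount. With genes in 5 equal bins by exon length, from the shortest to the longest, the median log2 fold change went from -0.062 to 0.042. The share called higher went from 4.07% to 21.5%. The share called lower went from 5.41% to 9.54%, with 12.6% in the middle bin. The part of expression level in these shares was not tested. By GC content the median went from 0.03 in the lowest to -0.051 in the highest of 5 bins. Protein-coding genes were called in 26.2% of cases and pseudogenes in 1.49%, groups that also differ in level.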
